A study of Mus musculus with 8 samples.

Results

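The mRNAs described here encode the subunits of respiratory complex I (NADH:ubiquinone oxidoreductase) in mouse brain, heart, kidney and liver. Members were the rows of the deposited gene table whose symbol names an Nduf subunit of the a, ab, b, c, s or v series, or a mitochondrial ND subunit. This gave 44 of 27179 genes, 37 in the nuclear genome and 7 in the mitochondrial genome. Complex I takes electrons from NADH through a flavin and a chain of iron-sulfur clusters in its matrix arm to ubiquinone, and its membrane arm pumps protons. Its core subunits are shared with bacteria, and in animals the core of the matrix arm is encoded in the nucleus and that of the membrane arm in mitochondrial DNA, so that building it takes transcripts of both genomes. Heart muscle is known for dense mitochondria, and accessory subunits, all nuclear, surround the core.

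Total RNA was sequenced from 1 library of flash-frozen and 1 of formalin-fixed, paraffin-embedded (FFPE) tissue of each organ, which gave 8 libraries. The organs came from mice whose strain, sex and age the labels do not give, and FFPE tissue was fixed in 10% formalin. All 8 RNAs were extracted with Trizol and sheared by sonication for 6 min, after removal of paraffin for FFPE tissue. The groups are frozen brain, FFPE brain, frozen heart, FFPE heart, frozen kidney, FFPE kidney, frozen liver and FFPE liver, with no other treatment named. Whether the 2 libraries of an organ share an animal is not given, so p-values measure only the spread between these libraries. Gene reads numbered 10180972 to 20526813 per library. Levels are log2 CPM as deposited (CPM, reads per 1000000 counted reads after the authors' scaling). Levels of different genes are compared as CPM per kilobase of the annotated transcript. In such bulk RNA, fewer cells of a type and less RNA per cell cannot be told apart.

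The organ labels matched their defining markers. The summed level of 8 neuronal and glial markers was 3625 and 4286 CPM in frozen and FFPE brain and at most 236.9 CPM elsewhere. That of 7 ventricle markers was 27077 and 24331 CPM in heart and at most 299.8 elsewhere, that of 8 proximal tubule markers 11132 and 7405 in kidney and at most 19.4 elsewhere, and that of 7 hepatocyte markers 54493 and 46405 in liver and at most 63.8 elsewhere. Markers of some tissue parts or cell types differed between the 2 libraries of an organ. The 6 atrial markers summed to 18.03 CPM in frozen heart, with Bmp10, Myl7, Sln and Mybphl at 0 reads, and to 930.5 CPM in FFPE heart. The 11 cerebellar markers summed to 161.9 CPM in frozen brain, with Gabra6 and Pcp2 at 0 reads, and to 447.2 CPM in FFPE brain. In kidney the 8 proximal tubule markers were all lower in the FFPE library (median −0.72), and 4 red cell markers summed to 205.4 CPM in frozen and 62.0 CPM in FFPE kidney. The 5 collecting duct and 4 podocyte markers were all higher in FFPE kidney (medians 0.18 and 0.49). In FFPE liver 6 of 7 hepatocyte markers were lower (median −0.51), and in FFPE heart 6 of 7 ventricle markers (median −0.34). The part of these differences in the results below was not tested.

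The 7 mitochondrial subunits lie on the mitochondrial chromosome of mm10 as protein-coding genes (GENCODE vM21). ND1 is at chrM:2751-3707, plus strand, ND2 at chrM:3914-4951, plus strand, ND4 at chrM:10167-11544, plus strand and ND5 at chrM:11742-13565, plus strand. ND4L is at chrM:9877-10173, plus strand, and its end overlaps the start of ND4. ND6 is the only one on the other strand, at chrM:13552-14070, minus strand, and its end overlaps that of ND5. Without a stated strand setting, reads from such overlaps cannot be told apart. ND3 is at chrM:9459-9806, plus strand.

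Copies of mitochondrial DNA inserted in the nuclear genome limit how reads of 3 of these genes can be assigned. The pseudogene Gm28438 (chr1:24612775-24613119, minus strand) matches ND3 over 345 bases with 1 difference, T3C, counted from 1 at the first base of ND3 (the base of ND3 first). The first 60 bases of both are shown because this base, in capitals, is the only one to differ in the aligned part.
ND3: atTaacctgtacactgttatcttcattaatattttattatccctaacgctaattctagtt
Gm28438: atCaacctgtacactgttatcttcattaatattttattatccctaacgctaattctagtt
ND4L is identical to Gm10222 (chr1:24612407-24612700) over 294 bases, and ND4 to Gm28439 (chr1:24611535-24612410) over 876 of its 1378 bases. Of all windows of 50 bases, all but 6 in ND3 and all but 3 in ND4L also occur in another annotated transcript. The share was 62.2% in ND4, 8.19% in ND2, 7.61% in ND5 and 0% in ND1 and ND6. Among nuclear members the share reached 41.2% in Ndufs5 and 39.7% in Ndufs3. Levels of ND3, ND4L and ND4 are therefore uncertain as to how shared reads were counted.

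Most mitochondrial transcripts were far more abundant per length than the nuclear ones. The value counted for ND4L lay within the nuclear range, with 2 to 31 of 37 nuclear members below it. ND1, in the proton-pumping arm next to the quinone site, stood at 10.45 and 10.72 in frozen and FFPE brain, 13.40 and 13.17 in heart, 11.91 and 12.59 in kidney, and 11.40 and 12.36 in liver (log2 CPM). ND5, the distal antiporter-like subunit, stood at 10.34 and 10.71 in frozen and FFPE brain, 13.32 and 13.66 in heart, 12.04 and 12.86 in kidney, and 11.58 and 12.89 in liver. Its highest level was in FFPE heart and its lowest in frozen brain. Per kilobase, the median mitochondrial subunit was lowest in frozen brain, at 482 CPM, and highest in FFPE liver, at 4050 CPM. The median nuclear subunit was lowest in FFPE brain, at 16.1 CPM, and highest in frozen heart, at 146.7 CPM. Together the 37 nuclear members took 0.101 to 0.266% of a library's gene reads and the 7 mitochondrial ones 0.664 to 3.28%. Without ND4L, every mitochondrial subunit lay per kilobase above all 37 nuclear ones in 7 of 8 libraries. The exception was FFPE heart, where 23 of 37 nuclear members lay below ND3. The value counted for ND4L, a small hydrophobic subunit, was the lowest of the 7 mitochondrial genes per kilobase in 8 of 8 libraries. It lay between 11.6 CPM (frozen brain) and 90.2 CPM (frozen heart), and how its shared reads were counted is not known.

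**Figure D1:**
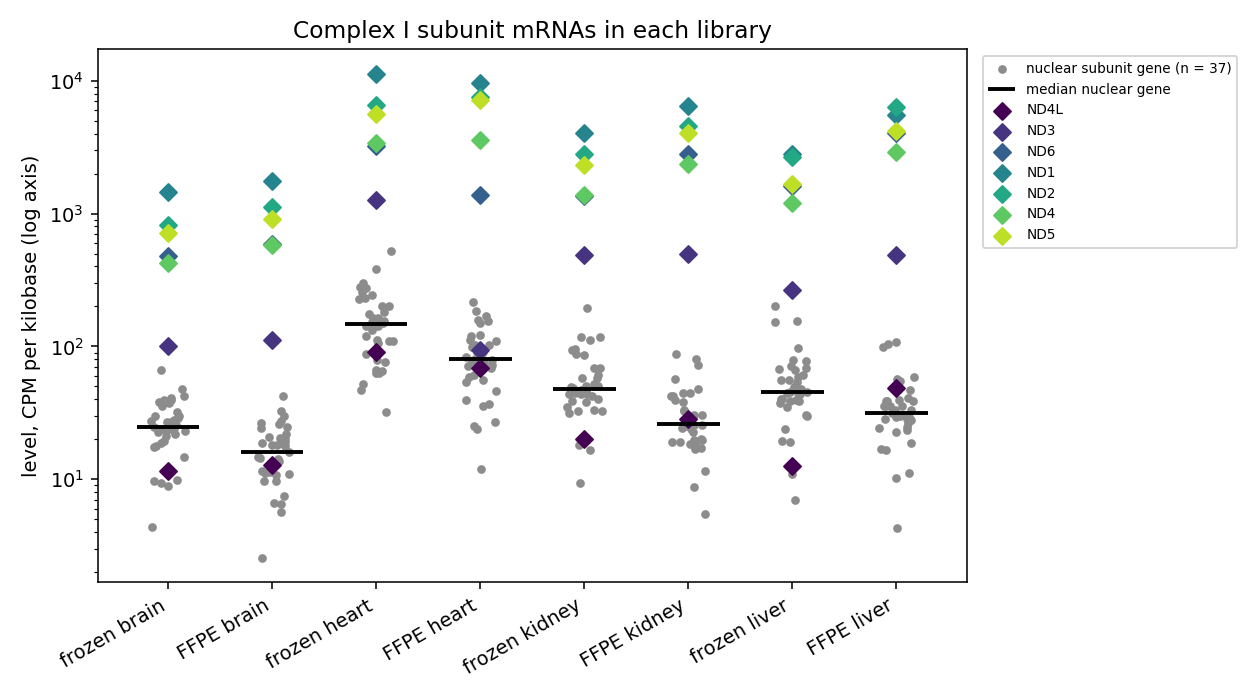
Level of each complex I subunit mRNA (vertical axis, CPM per kilobase, log axis) in the 8 libraries (horizontal axis). Grey points are the 37 nuclear genes, black bars their medians and coloured diamonds the 7 mitochondrial genes, and ND1, ND2, ND4 and ND5 lie above every nuclear gene in all 8 libraries.

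Nuclear subunit mRNAs were not equally abundant within a library. Ndufa4 was the highest per kilobase and Ndufab1 the lowest in 8 of 8 libraries, 522 against 32.0 CPM per kilobase in frozen heart and 66.3 against 4.41 in frozen brain. Ndufa4 carries a complex I name but is now regarded as a subunit of cytochrome c oxidase. Ndufab1 is the mitochondrial acyl carrier protein, which also serves fatty acid synthesis, and its value per length rests on an annotated mRNA of 3479 nt. The span between both extremes was 15.0-fold in frozen brain and 29.0-fold in frozen liver.

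All 37 nuclear subunit mRNAs were higher in heart than in the mean of the other 3 organs, at a median log2 difference of 1.76 (3.38-fold). They passed limma's test at a Benjamini-Hochberg adjusted p under 0.05, where 21.5% of all 15819 genes tested were called higher. The median over all genes was −0.19. Each was highest in heart among the 4 organs in both preparations, which held for 15.6% of all genes. Core and accessory members did not differ in this count, at 7 of 7 core, 9 of 9 matrix-arm, 19 of 19 membrane-arm genes, and Ndufab1 and Ndufa4. Of 7 mitochondrial subunits 5 were also called higher in heart (limma). ND3 with 0.38 ± 0.73 (SE, adjusted p = 0.688) and ND6 with 0.60 ± 0.43 (SE, adjusted p = 0.273) were not (limma). Among frozen libraries both were highest in heart (8.79 and 10.70 log2 CPM), and FFPE heart was lower (5.04 and 9.47).

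Among the core subunits Ndufs7, an iron-sulfur protein next to the quinone-binding site, stood at 4.42 and 3.78 in frozen and FFPE brain, 6.75 and 6.40 in heart, 5.19 and 4.25 in kidney, and 5.11 and 4.54 in liver (log2 CPM). Both heart libraries lay above the 6 others. The fitted difference of heart from the other organs was 2.03 ± 0.15 (SE, adjusted p = 1.28e-05, limma). Ndufv1, which binds the flavin and NADH, was higher by 1.91 ± 0.14, and its iron-sulfur partner Ndufv2 by 1.81 ± 0.16. The iron-sulfur protein Ndufs1, the scaffold subunit Ndufs3 and the iron-sulfur protein Ndufs8, were higher by 1.90 ± 0.14, 1.59 ± 0.14 and 1.61 ± 0.14.

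The members farthest from the nuclear median in heart were accessory subunits. Ndufc1, of the membrane arm, stood at 3.68 and 3.12 in frozen and FFPE brain, 6.56 and 5.61 in heart, 4.80 and 3.75 in kidney, and 4.22 and 3.48 in liver, and its heart difference was the highest at 2.24 ± 0.15 (SE, adjusted p = 8.9e-06, limma). Ndufa5, of the matrix arm, followed with 2.20 ± 0.21. The lowest were Ndufc2 with 1.03 ± 0.16 and Ndufb3 with 1.15 ± 0.17, both of the membrane arm. Ndufc2 stood at 4.21 and 3.19 in frozen and FFPE brain, 5.51 and 4.76 in heart, 4.85 and 3.79 in kidney, and 4.58 and 4.02 in liver, so that its heart libraries were still the highest within each preparation. Against kidney alone, 36 of 37 nuclear members were called higher in heart at a median of 1.45, where 18.8% of all genes were. The member not called was Ndufb4 (0.81 ± 0.29 SE, adjusted p = 0.0537, limma). Without the authors' scaling factors the count was 22, at a median of 0.63. The share and median of all genes under that setting are not set beside these values.

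Brain held the lowest nuclear subunit mRNA. All 37 were called lower in brain than in the mean of the other organs (limma), at a median of −1.47 (2.77-fold), where 31.6% of all genes were called lower. Each was lowest in brain in both preparations, which held for 21.6% of all genes. All 7 mitochondrial subunits were called lower too, at a median of −2.03, and 6 of 7 were lowest in brain in both preparations. The exception, ND3, was lower in FFPE heart (5.04) than in FFPE brain (5.28). Without the scaling factors 22 of 37 nuclear members were called lower in brain, at a median of −0.54. Under that setting the median of all genes was 0.98, and the share of all genes called lower is not given.

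Ndufs6, a zinc-binding accessory subunit near the iron-sulfur clusters, stood at 3.35 and 2.70 in frozen and FFPE brain, 6.63 and 5.68 in heart, 5.10 and 3.86 in kidney, and 5.23 and 4.53 in liver, and was the farthest below in brain (−2.15 ± 0.16 SE, adjusted p = 7.59e-06, limma). Ndufb11, of the membrane arm, followed with −2.13 ± 0.14. The smallest brain differences were those of Ndufs5, a subunit facing the intermembrane space, with −0.82 ± 0.17, and of Ndufc2 with −0.88 ± 0.16.

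Kidney and liver lay between heart and brain. The median nuclear member was at 5.30 and 4.38 in frozen and FFPE kidney and at 5.24 and 4.61 in frozen and FFPE liver (log2 CPM), so that their order turned with the preparation. Against the other organs, kidney gave 5 members lower and 0 higher (limma), where 19.9% of all genes were lower and 20.3% higher. Liver gave 5 lower and 1 higher, where the shares were 35.2% and 27.3%. The farthest in kidney were the membrane-arm subunits Ndufa3 (−0.61 ± 0.20 SE, adjusted p = 0.0358) and Ndufb2 (−0.58 ± 0.18 SE, adjusted p = 0.0354) on the low side, and Ndufb4 (0.34 ± 0.24 SE, adjusted p = 0.289) and Ndufv3 (0.31 ± 0.13 SE, adjusted p = 0.0913) on the high side (limma). In liver Ndufc1 (−0.74 ± 0.15 SE, adjusted p = 0.00298) and Ndufb8 (−0.58 ± 0.16 SE, adjusted p = 0.0124), both of the membrane arm, were lower. The LYR-motif protein Ndufa6 was higher (0.65 ± 0.14 SE, adjusted p = 0.0033), and the matrix-arm subunit Ndufa7 had 0.47 ± 0.19 (SE, adjusted p = 0.0566, limma). In kidney and liver 0 of 7 mitochondrial subunits were called (limma), and 0 had an unadjusted p under 0.05. At that unadjusted p, 3758 of all 15819 genes were higher and 3841 lower in kidney, and 4591 were higher and 5905 lower in liver. Among nuclear members 1 was higher and 11 were lower in kidney, and 3 were higher and 5 lower in liver. Without a library of another organ the kidney count was 3 (frozen brain), 2 (FFPE brain), 5 (frozen heart) or 8 (FFPE heart). It was 3 without frozen liver and 1 without FFPE liver. The liver count became 9 without FFPE heart. Counts of all genes in these reduced fits are not set beside them, so they are no result about the members.

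**Figure D2:**
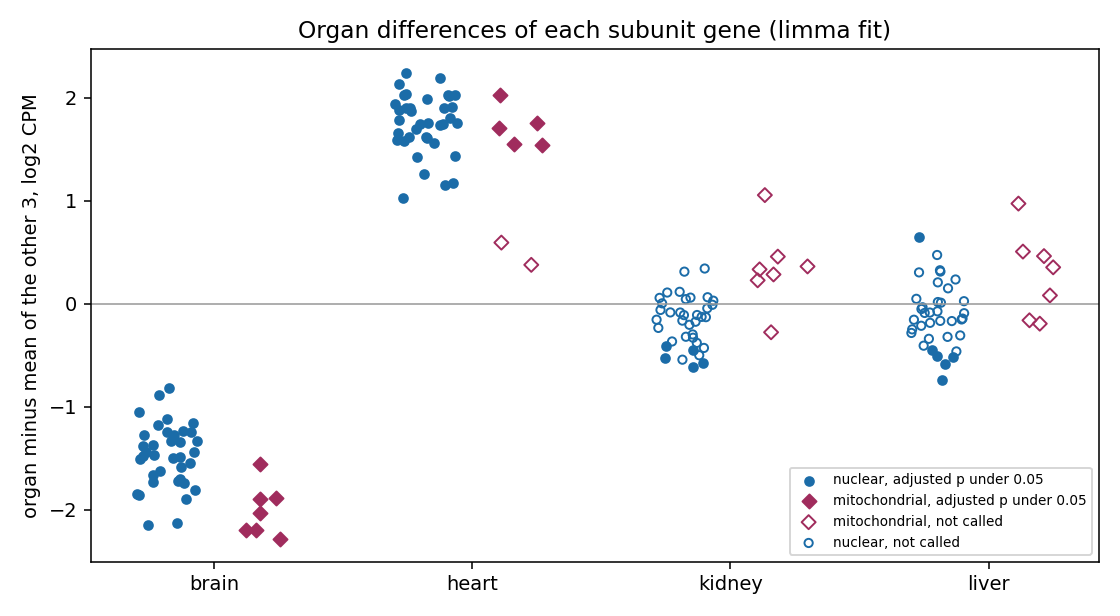
Fitted log2 difference of each organ from the mean of the other 3 (vertical axis) for each nuclear (circles) and mitochondrial (diamonds) subunit gene, by organ (horizontal axis). Filled symbols passed an adjusted p of 0.05, and all 37 nuclear genes lie above 0 in heart and below 0 in brain.

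The promoters of nuclear members were searched because these genes differed together between organs. RefSeq windows of 250 bases before the start (GRCm38.p6) were at hand for 33 of 37 nuclear members, 35 windows in all. Motifs known from respiratory genes were searched on both strands, the core of nuclear respiratory factor NRF1 (GCGCANGCG), an ETS site bound by GABP (CCGGAAGT), a YY1 site (AAGATGGCG) and the half-site of estrogen-related receptors (TCAAGGTCA). Overlapping matches were counted. The NRF1 core occurred in 7 of 35 windows, of 6 genes, and in 5.16% of all 32851 windows. The other 3 motifs occurred in 0 of 35 windows, and in 2.88, 0.606 and 0.387% of all windows. The median GC content was 57.6% in member windows and 52.4% in all. A match describes the letters and is no site. Ndufb4 had the most matches and Ndufs6 the most negative difference of brain from the other organs. Ndufs5, with the smallest brain difference, had 1 match, and Ndufb11, which followed Ndufs6, had 0. The windows of Ndufb4 and Ndufs6 (chr16:37654369-37654618 and chr13:73328483-73328732, both minus strand) are shown with the NRF1 core or its reverse complement in capitals.
Ndufb4: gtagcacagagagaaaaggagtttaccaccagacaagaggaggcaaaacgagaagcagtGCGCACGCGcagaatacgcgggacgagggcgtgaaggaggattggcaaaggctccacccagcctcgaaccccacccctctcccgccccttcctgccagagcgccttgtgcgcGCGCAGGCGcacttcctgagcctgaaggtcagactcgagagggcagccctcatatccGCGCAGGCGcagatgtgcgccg
Ndufs6: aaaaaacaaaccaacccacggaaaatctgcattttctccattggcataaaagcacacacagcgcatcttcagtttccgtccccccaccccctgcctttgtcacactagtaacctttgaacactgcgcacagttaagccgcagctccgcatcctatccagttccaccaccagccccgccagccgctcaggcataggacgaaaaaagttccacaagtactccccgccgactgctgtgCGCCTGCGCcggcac

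Nuclear subunit mRNAs were lower in FFPE than in frozen tissue. Of 37 nuclear members 28 fell in the fit over the 4 organs (limma, adjusted p under 0.05), where 2.18% of all genes were called lower. All 37 estimates were negative, at a median of −0.74 (1.67-fold), and the median of all genes was 0.07. In 36 of 37 the FFPE library was the lower one in 4 of 4 organs, which held for 14.9% of all genes. By organ the nuclear median was −0.63 in brain, −0.89 in heart, −0.87 in kidney and −0.62 in liver. In kidney the proximal tubule markers had a median of −0.72 and the 4 red cell markers one of −1.75. The collecting duct and podocyte markers had medians of 0.18 and 0.49 there. In liver the hepatocyte markers had a median of −0.51. The part of these markers was not tested. With 1 library of each kind per organ, the p-values rest on how the difference varied between the 4 organs, with 3 residual degrees of freedom. Leaving out any brain, kidney or liver library left 0 members called lower, and at most 1 of all genes. The nuclear medians were then −0.71 to −0.80. Without frozen heart 18 members were called lower, as were 233 of all genes. Without FFPE heart 20 members were, as were 268 of all genes.

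The core subunits had the smallest median difference, and 4 of 7 fell (−0.53), against 7 of 9 accessory subunits of the matrix arm (−0.68) and 15 of 19 of the membrane arm (−0.82). Ndufs8 fell by 0.79 ± 0.12 (SE, limma adjusted p = 0.0198), and its organ differences were −0.61, −0.71, −1.03 and −0.82 in brain, heart, kidney and liver. Ndufs3 and Ndufs7 fell as well, with −0.63 ± 0.12 and −0.63 ± 0.13. The core members not called were Ndufs1 at −0.50 ± 0.12 (SE, adjusted p = 0.0649), Ndufv1 at −0.53 ± 0.12 (SE, adjusted p = 0.0611) and Ndufv2 at −0.53 ± 0.14 (SE, adjusted p = 0.0815, limma). The difference between core and accessory subunits was not tested.

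The accessory members with the lowest differences were Ndufb6, Ndufa7, Ndufa2, Ndufab1 and Ndufb8. Ndufb6, of the membrane arm (chr4:40270591-40279421), stood at 3.92 and 2.83 in frozen and FFPE brain, 6.21 and 5.21 in heart, 5.25 and 3.91 in kidney, and 4.95 and 4.01 in liver, and its organ differences lay between −1.34 in kidney and −0.94 in liver. Its fitted difference was −1.09 ± 0.12 (SE, adjusted p = 0.0129, limma). The matrix-arm subunits Ndufa7 and Ndufa2, the latter with a thioredoxin-like fold, had −1.03 ± 0.16 and −1.01 ± 0.12. Ndufab1 had −0.92 ± 0.15 and Ndufb8 −0.92 ± 0.14. Ndufa4 stood at 5.34 and 4.70 in frozen and FFPE brain, 8.32 and 7.05 in heart, 6.89 and 5.74 in kidney, and 6.95 and 6.03 in liver. It was lower in each FFPE library, and fell by 0.996 ± 0.13 (SE, limma adjusted p = 0.0129).

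Ndufs5 had the smallest difference of all 37. It stood at 3.93 and 3.69 in frozen and FFPE brain, 5.79 and 4.95 in heart, 4.10 and 4.00 in kidney, and 4.56 and 4.35 in liver, and its fitted difference was −0.35 ± 0.15 (SE, adjusted p = 0.233, limma). Next came Ndufa10, which has a nucleoside kinase fold, with −0.49 ± 0.11 (SE, adjusted p = 0.0529), and Ndufa12, a matrix-arm subunit related to the assembly factor Ndufaf2, with −0.59 ± 0.18 (SE, adjusted p = 0.116, limma). None of these 3 passed the test. Ndufa9, a nucleotide-binding subunit, fell by 0.53 ± 0.11 and Ndufa6 by 0.64 ± 0.12. Ndufa12 was the member not lower in 4 of 4 organs, at 3.60 in frozen and 3.64 in FFPE liver.

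**Figure D3:**
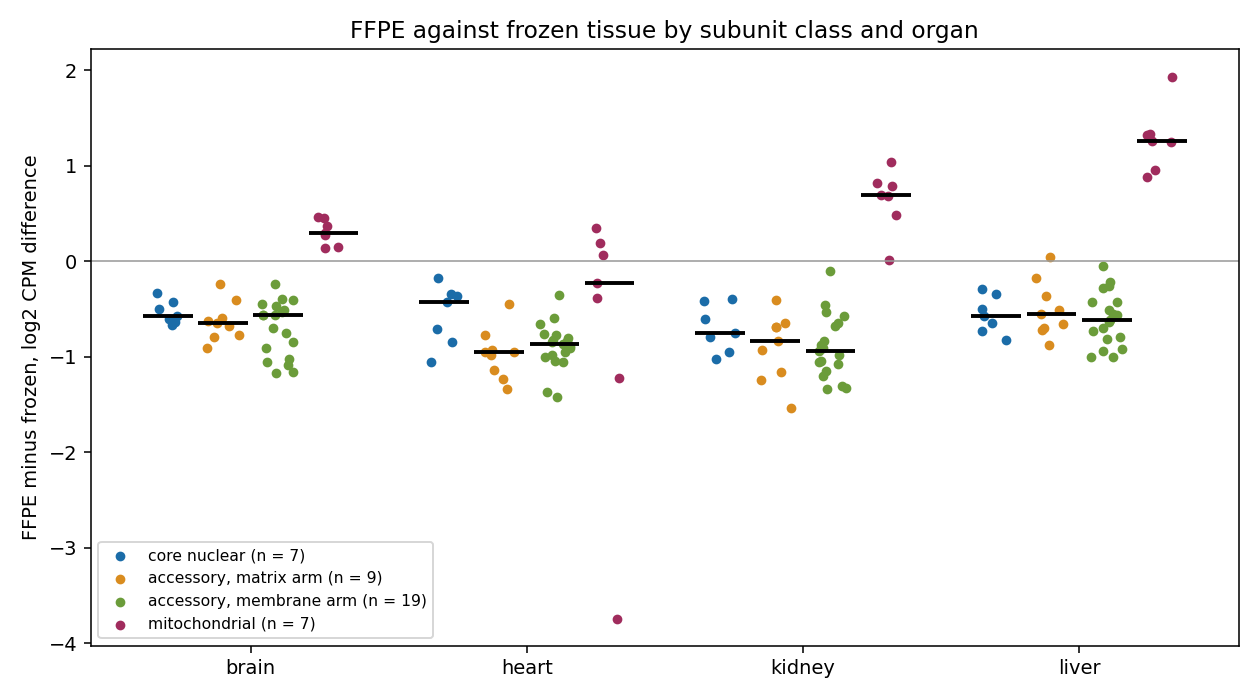
FFPE minus frozen difference (vertical axis, log2 CPM) of each core nuclear, accessory and mitochondrial subunit gene, by organ (horizontal axis). Bars are medians over genes, Ndufab1 and Ndufa4 are left out, and the nuclear classes lie below 0 but for 1 gene in liver while mitochondrial genes lie above 0 in brain, kidney and liver.

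The nuclear count moved with corrections for length, with the scaling and with the spread model. Nuclear members have short mRNAs, with a median of 763 nt against 3044 nt in other tested protein-coding genes. When each library's dependence on mRNA length and on GC was taken out, 6 of 37 were called lower, as were 255 of all genes. The 6 were Ndufa2, Ndufab1, Ndufb11, Ndufb6, Ndufc1 and Ndufs1, and the median of all 37 was −0.39. Ndufs1 was not among the 28. With length alone taken out 0 of 37 were called lower, as were 8 of all genes, at a median of −0.39. With GC alone 32 were called lower, as were 691 of all genes. These 2 single corrections were chosen after seeing the data. Across the 37 members the mean difference and log2 length correlated at Pearson r = 0.41 (Spearman rho = 0.45), a description over genes that share libraries. With length it was 0.19 in brain, 0.17 in heart, 0.42 in kidney and 0.20 in liver, and the mean difference correlated with mean level at 0.37. Without the authors' scaling factors the median of all genes moved from 0.07 to 0.54. Under this setting 4 of 37 were called lower, as were 73 of all genes, the nuclear median was −0.27 and Ndufs5 turned positive. Relative to the median gene the nuclear median was −0.81 under both scalings. This was fixed in advance, because a scaling factor moves all genes of a library alike. With no mean-variance trend in the fit 0 of 37 were called lower, as were 0 of all genes.

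The mitochondrial subunits did not follow. None of 7 was called higher in FFPE (limma), where 1.20% of all genes were, and none lower. At an unadjusted p under 0.05 there were 3 higher, where 1811 of all 15819 genes were. Of 7 estimates 6 were positive, at a median of 0.54. The 3 subunits ND2, ND4 and ND5 were higher in FFPE in 4 of 4 organs, which held for 14.6% of all genes. ND2 had 0.65 ± 0.27 (SE, adjusted p = 0.211), ND4 0.65 ± 0.25 (SE, adjusted p = 0.177) and ND5 0.71 ± 0.30 (SE, adjusted p = 0.222, limma). ND1 had 0.42 ± 0.30 (SE, adjusted p = 0.449), with organ differences of 0.27, −0.23, 0.68 and 0.96 in brain, heart, kidney and liver. With limma's voom on recovered reads these same ND2, ND4 and ND5 were called higher. Without scaling factors ND1, ND2, ND4, ND4L and ND5 were called higher, where the median of all genes was 0.54. Counts of all genes called higher under these 2 settings are not set beside them, so they are no result about the members.

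The mitochondrial values spread widely between organs, and this spread was not tested. Their median was 0.30 in brain, −0.23 in heart, 0.69 in kidney and 1.27 in liver, and liver was the organ with the highest difference in 7 of 7 subunits. ND2 stood at 9.75 and 10.20 in frozen and FFPE brain, 12.74 and 12.93 in heart, 11.51 and 12.20 in kidney, and 11.44 and 12.68 in liver. ND4 stood at 9.19 and 9.65 in frozen and FFPE brain, 12.19 and 12.26 in heart, 10.88 and 11.67 in kidney, and 10.70 and 11.96 in liver. Both FFPE liver values lay more than 1 log2 unit above frozen liver, while those of heart differed by 0.19 and 0.07.

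In heart ND3, ND4L, ND6 and ND1 were lower in the FFPE library. ND3, 348 nt, stood at 5.13 and 5.28 in frozen and FFPE brain, 8.79 and 5.04 in heart, 7.41 and 7.43 in kidney, and 6.54 and 7.42 in liver. Frozen heart held 4528 reads of ND3 and FFPE heart 434, a difference of −3.74 log2 units, against 0.15, 0.02 and 0.88 in brain, kidney and liver. ND6, 519 nt and read from the other strand, stood at 7.97 and 8.27 in frozen and FFPE brain, 10.70 and 9.47 in heart, 9.46 and 10.50 in kidney, and 9.70 and 11.04 in liver, with −1.23 in heart against 0.30, 1.04 and 1.33 in brain, kidney and liver. ND4L, 297 nt, stood at 1.79 and 1.94 in frozen and FFPE brain, 4.75 and 4.36 in heart, 2.58 and 3.07 in kidney, and 1.92 and 3.86 in liver, and rests on 39 to 275 reads per library. ND1, 957 nt, differed by −0.23 in heart, and ND2, ND4 and ND5, of 1038 nt or more, by 0.07 to 0.35. ATP8, an ATP synthase gene outside complex I annotated at 204 nt, differed by 0.13 there. These lengths are those of the annotated genes and not of measured mRNAs. The fitted differences were −0.67 ± 0.63 (SE, adjusted p = 0.573) for ND3, 0.36 ± 0.37 (SE, adjusted p = 0.607) for ND6 and 0.54 ± 0.34 (SE, adjusted p = 0.385) for ND4L (limma). Across the 7 subunits the heart difference and log2 length correlated at Pearson r = 0.67, against 0.85 in brain, 0.56 in kidney and −0.27 in liver, a description over 7 genes of 1 library pair each. The atrial markers differed between the same 2 heart libraries (18.03 and 930.5 CPM summed), and their part was not tested.

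**Figure D4:**
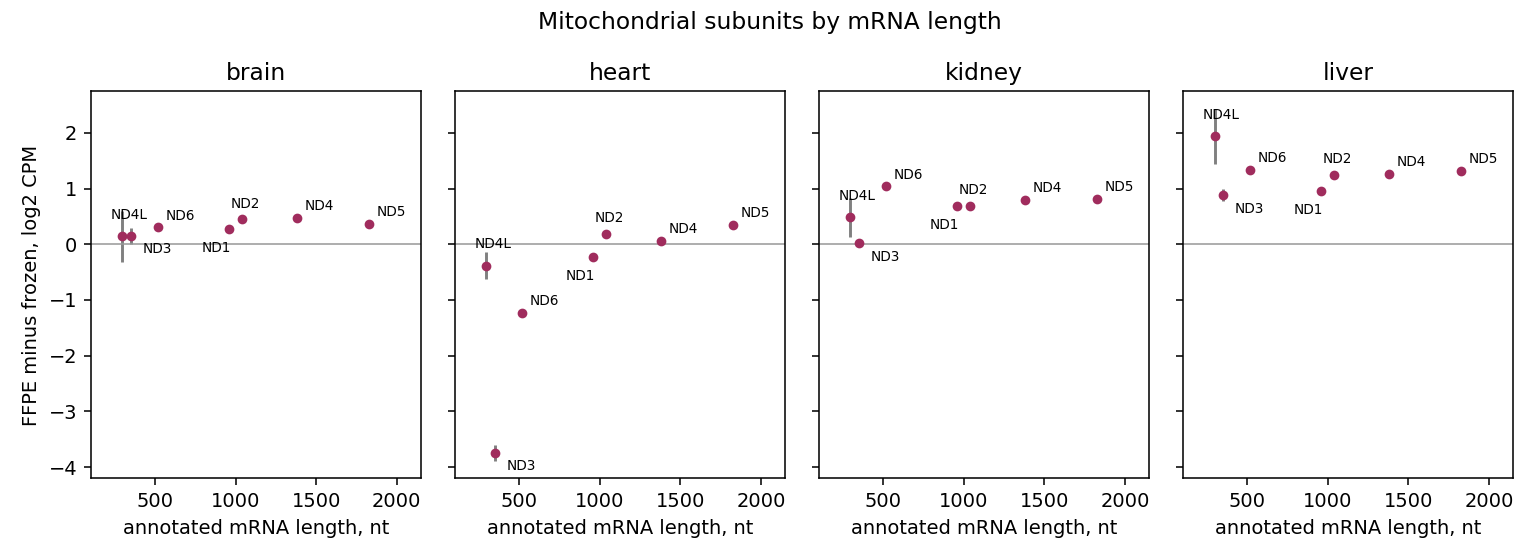
FFPE minus frozen difference (vertical axis, log2 CPM) of the 7 mitochondrial subunits against annotated gene length (horizontal axis, nt), 1 panel per organ. Bars are 95% counting intervals of 1 library pair, and ND3 in heart lies at −3.74 while ND5, the longest, lies at 0.35 there.

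Within each library mitochondrial transcripts outweighed nuclear ones by more in FFPE than in frozen tissue of the same organ. This ratio is free of the library's scaling. Summed reads per kilobase of the 7 mitochondrial subunits were 4.08 and 8.10 times those of the 37 nuclear subunits in frozen and FFPE brain. They were 5.23 and 9.05 times in heart, 5.72 and 17.6 times in kidney, and 4.87 and 17.1 times in liver. The 4 frozen libraries spanned 4.08 to 5.72, and the 4 FFPE libraries lay above all of them. The FFPE ratio was 1.98 times the frozen one in brain, 1.73 times in heart, 3.07 times in kidney and 3.52 times in liver. Each value is from 1 pair of libraries and has no test. With the median member per kilobase in place of the sum, an alternative chosen after seeing the data, it was 1.89 times in brain, 1.91 in heart, 3.77 in kidney and 3.65 in liver. Restricted to ND1, ND2, ND5 and ND6, which share under 10% of their windows with other transcripts, the FFPE ratio was 1.97, 1.78, 3.12 and 3.51 times the frozen one.

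**Figure D5:**
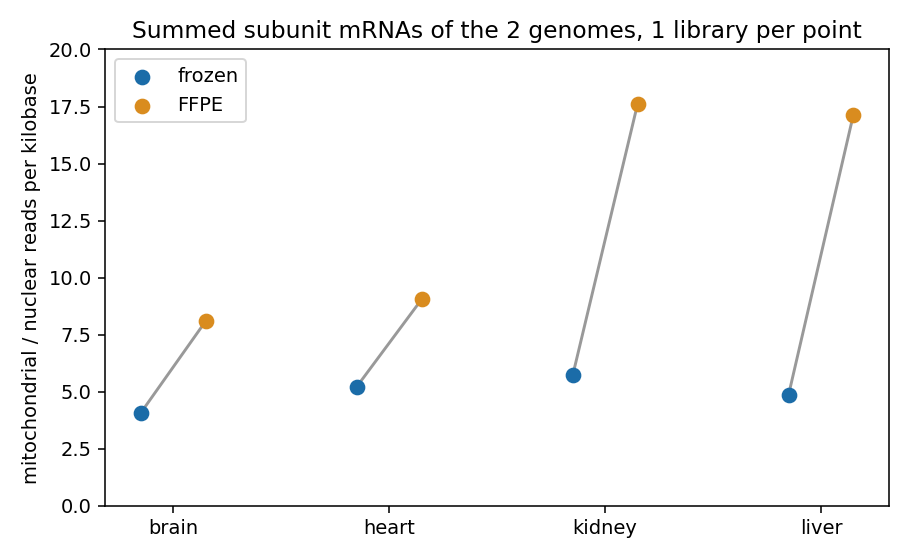
Ratio of summed mitochondrial to summed nuclear complex I reads per kilobase (vertical axis) in frozen and FFPE libraries of each organ (horizontal axis), 1 library per point, lines joining an organ. All 4 FFPE libraries, from 8.10 to 17.6, lie above the frozen ones, from 4.08 to 5.72.

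Genes that work with complex I were set beside its subunits from lists. The lists were chosen with earlier results of these data known. Of 16 assembly factors tested 0 were called in FFPE against frozen tissue (limma), at a median of −0.37. At an unadjusted p under 0.05, 6 of them were lower, where 1600 of all 15819 genes were. Ndufaf8 had −1.04 ± 0.24 (SE, adjusted p = 0.0543) and Ndufaf2 −0.84 ± 0.32 (SE, adjusted p = 0.177). In heart 6 of 16 assembly factors were higher, at a median of 0.55, where 21.5% of all genes were called higher. Complex II, the other entry of electrons and wholly nuclear, had 3 of 4 members lower in FFPE (median −0.59), where 2.18% of all genes were, with Sdhb at −0.81 ± 0.10 (SE, adjusted p = 0.0129) and Sdhd at −0.64 ± 0.11 (SE, adjusted p = 0.0252), and 4 of 4 higher in heart. The 9 nuclear genes of complex III had 6 lower in FFPE (median −0.67, against the same 2.18% of all genes), with Uqcr10 at −1.17 ± 0.14 (SE, adjusted p = 0.0129) and Uqcr11 at −1.15 ± 0.12 (SE, adjusted p = 0.0129, limma), and 9 of 9 higher in heart, again against 21.5%.

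The 6 mitochondrial mRNAs outside complex I gave estimates of the other sign. All 6 were positive, at a median of 0.93, and 1 was called higher (1.20% of all genes were), the ATP synthase subunit ATP6 (1.70 ± 0.18 SE, adjusted p = 0.0129, limma), of whose windows 99.5% are shared with other transcripts. ATP8 had 1.14 ± 0.35 (SE, adjusted p = 0.114, limma). Of 14 genes of mitochondrial transcription and RNA stability 1 fell (2.18% of all genes did), Slirp, which stabilises mitochondrial mRNA (−1.17 ± 0.18 SE, adjusted p = 0.0201, limma). The elongation factor Tefm had −0.69 ± 0.25 (SE, adjusted p = 0.165). Of 11 nuclear regulators of respiratory genes 0 were called in FFPE, with the coactivator Ppargc1a at 0.55 ± 0.18 (SE, adjusted p = 0.126) and Nrf1 at 0.38 ± 0.15 (SE, adjusted p = 0.195, limma). At an unadjusted p under 0.05 there were 3, all higher, where 1811 of all 15819 genes were higher. In heart 7 of the 11 were higher, where 21.5% of all genes were, and Nrf1, with 0.07 ± 0.17 (SE, adjusted p = 0.749), was not called.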

How the data were processed

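Total RNA of 4 mouse organs, frozen or FFPE, was measured in 8 libraries, and 1 deposited table holds 27179 genes. Its values are log2 CPM, made by the authors, and reads were aligned with HISAT2 to mm10 and counted with featureCounts, with limma also named, per the submitters' processing notes. Tool versions, annotation, strand setting and scaling method, not given in the sources used here, could move these values. All values of every library gave whole reads on a log2(reads + 0.5) scale, within a relative tolerance of 1e-06, so reads per gene, totals (10180972 to 20526813) and the authors' scaling factors (0.500 to 1.76) were recovered. Genes above 1 CPM in at least 2 libraries were kept (15819, all 44 members among them). limma 3.58.1 in R 4.3.3 was fitted to the deposited values of all 8 libraries with organ and preservation as terms and a mean-variance trend. Two-sided p-values were adjusted over all tested genes (Benjamini-Hochberg), and a gene was called under 0.05. The organ term pairs the frozen and FFPE library of an organ. Gene models were GENCODE vM21 and promoters RefSeq (GRCm38.p6). Scripts were tested on simulated data. Members and lists were chosen with earlier results of these data known. Named are core and mitochondrial members (1 is not reported here), Ndufa4, the 5 lowest and 5 highest accessory members in FFPE, the 2 farthest above and below per organ, and 2 genes per list. Alternatives covered filters, scaling, the spread model, voom, length and GC, and each library left out. Counting intervals (95%) cover counting error only, and all columns were mapped to samples.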

Additional observations from a re-analysis of the deposited data

Results flagged for a closer look

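For 4 mitochondrial subunits the FFPE minus frozen difference had opposite signs in different organs, each beyond its 95% counting interval. ND1 differed by −0.23 in heart, and by 0.27 in brain, 0.68 in kidney and 0.96 in liver (log2). ND3 differed by −3.74 in heart, and by 0.15 in brain and 0.88 in liver. ND4L differed by −0.38 in heart, and by 0.49 in kidney and 1.94 in liver. ND6 differed by −1.23 in heart, and by 0.30 in brain, 1.04 in kidney and 1.33 in liver. Heart was the organ with the negative value in all 4. Values of ND3 and ND4L are also uncertain as to how shared reads were counted. Each value rests on 1 pair of libraries, and the difference between organs was not tested. Atrial markers also differed between both heart libraries, at 18.03 CPM summed in frozen and 930.5 CPM in FFPE heart, and their part in these values was not tested.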

How the results depend on the processing

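Alternatives covered the 7 counts of called members. The 28 nuclear members lower in FFPE became 4 without the authors' scaling factors, 0 with no mean-variance trend (0 of all genes were then called lower), 6 with length and GC trends removed, 0 with the length trend alone removed, and 0 to 20 leaving out each library. Under the other settings, GC alone included, the count was 19 to 36, while 197 to 835 of all genes were called lower. Of all genes, 73 were called lower without scaling factors, 255 with length and GC trends removed and 8 with length alone removed. Leaving out frozen or FFPE heart, 233 and 268 of all genes were called lower, and at most 1 leaving out any other library. The 0 mitochondrial members higher in FFPE became 5 without scaling factors and 3 with voom, and 0 to 0 leaving out each library. Lower in brain, 37 became 22 without scaling factors, and 36 to 37 leaving out each library. Higher in heart stayed at 33 to 37 under all settings, and heart against kidney fell from 36 to 22 without scaling factors (34 to 37 leaving out each library). The 5 lower in kidney became 3 with no filter, 3 with quantile normalization, 0 without scaling factors (1 higher), 0 on totals without ribosomal RNA genes (1 higher), 0 with no trend, 15 with length and GC trends removed, 12 with length alone, 11 with GC alone, and 0 to 8 leaving out each library. The 5 lower in liver became 15 with quantile normalization, 4 with median centring (5 higher), 16 without scaling factors, 29 on totals without ribosomal RNA genes, 1 with no trend, 16 with length and GC trends removed, 12 with length alone, 4 with GC alone (9 higher), and 0 to 9 leaving out each library. Counts of all genes are not set beside these counts for brain, heart, heart against kidney, kidney, liver and the mitochondrial members. Across settings these counts are therefore no result about the members. The FFPE estimate of Ndufs5 turned positive without scaling factors (0.13) and with length and GC removed (0.18) or length alone (0.18). The FFPE minus frozen change of the log2 nuclear to mitochondrial ratio lay between −0.92 and −1.14 in brain, −0.76 and −0.94 in heart, −1.55 and −1.91 in kidney, and −1.79 and −1.89 in liver over 7 ways of combining members. The restriction to mitochondrial members with few shared windows, the median per kilobase and the length-alone and GC-alone corrections were chosen after seeing the data. The planned fits with edgeR and DESeq2 were not run, although the recovered reads would allow them, and voom was the fit on those reads. Apart from these constructions the cause of a change was not tested. ND4L rests on 39 to 275 reads and, like ND3 and ND4, on how reads shared with nuclear copies were counted.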
